A study of Mus musculus with 6 samples.

Results

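Heme synthesis was followed through 9 genes measured in RNA of mouse bone marrow neutrophils: 8 enzyme genes, Alas1, Alas2, Alad, Uros, Urod, Cpox, Ppox and Fech, and Slc25a38, which encodes the glycine carrier of the inner mitochondrial membrane. They were found by gene symbol among the 51826 genes of the deposited table. Each symbol had a single gene ID, and all 9 were among the 16071 genes that passed the filter on low counts. The enzyme of the third step of the pathway was not analysed here. The recipient neutrophils had been treated with microvesicles, membrane-bound particles released by other cells. In 3 libraries (KD_MV) the particles came from Hepa1-6 cells, a mouse hepatoma line, in which ezrin had been knocked down, and in 3 libraries (Ctrl_MV) they came from wild-type Hepa1-6 cells. Donor cells of both groups had been deprived of glucose, and the labels do not say how ezrin was knocked down or whether the line was a clone. The labels give neither the age nor the strain of the mice, nor whether replicate libraries stem from different mice or cultures. The p-values are thus set by library-to-library spread alone, and that spread may be technical.

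Heme is built in a relay between mitochondrion and cytosol. Aminolevulinate synthase joins glycine to succinyl-CoA in the mitochondrial matrix, the middle steps assemble and trim the porphyrin ring in the cytosol, and the last enzymes, back in the mitochondrion, oxidise the ring and insert iron. The first step has a pair of isozymes: Alas1 is the housekeeping form, which heme represses, and Alas2 is the erythroid form, which supplies heme for hemoglobin. In neutrophils heme is the cofactor of myeloperoxidase, of the cytochrome of the NADPH oxidase and of catalase.

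Total counts were 38117403 to 42043434 in KD_MV libraries and 37346055 to 38826701 in Ctrl_MV libraries. The neutrophil genes S100a9 and S100a8, which encode calprotectin, were abundant, at 3720 ± 1334 and 2033 ± 505 TPM in KD_MV and 3054 ± 304 and 1344 ± 203 TPM in Ctrl_MV (SD, n = 3 per group). The neutrophil surface marker Ly6g was near the floor, at 4.01 ± 0.475 TPM in KD_MV and 3.55 ± 0.683 TPM in Ctrl_MV. The 4 adult globin genes together took 1.09 ± 0.0782% of counts in KD_MV and 9.96 ± 0.878% in Ctrl_MV, and these transcripts are typical of erythroid cells. In such bulk libraries fewer cells of a type and less RNA per cell cannot be told apart. Scaling matters for small differences: TMM factors, which assume that most genes do not differ, put the median log2 fold change of all tested genes at 0.03, library size alone put it at 0.43, and deposited TPM at 0.51 on the log2(TPM + 1) scale. All log2 fold changes are KD_MV minus Ctrl_MV, and CPM, counts relative to library size, are scaled with TMM factors.

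Alas2 mRNA carries a known regulatory hairpin near its start, the iron-responsive element, to which iron regulatory proteins bind when iron is scarce. The element is shown because it distinguishes the erythroid isozyme from Alas1 in sequence as well as in level. It lies at bases 84 to 113 of a 2037-base GENCODE M21 transcript whose 5′ UTR has 126 bases. Capitals mark the 6-base loop, searched as CAGTG followed by A, C or T. The search also required a bulged C and paired stem bases, of which 5 of 5 pairs matched.

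Alas2 iron-responsive element: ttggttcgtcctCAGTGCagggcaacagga

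No such element was found in the 5′ UTRs of the coding transcripts of Alas1, Alad, Uros, Urod, Cpox, Ppox and Slc25a38, and Fech was not searched.

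The bases before the start sites are shown because the members differed in direction, and the windows could be compared for motifs of erythroid and housekeeping factors. Windows of 250 bases before the annotated start were taken from RefSeq (GRCm38.p6), 11 windows for 8 members, with Fech not searched. Both strands were searched for AGATAA and, with the other permitted first base, TGATAA, which are motifs read by factors such as GATA1, a driver of erythroid genes. They were also searched for CACGTG, the E-box read by MYC and USF proteins, and for GCATGCGC, the core of the NRF1 site found before many genes of mitochondrial function. Of all 32851 RefSeq windows of this length, 16.6% held the GATA motif, 6.02% the E-box and 2.26% the NRF1 core. Capitals mark the matched letters, and each sequence reads 5′ to 3′ on the strand of its gene. The Alas2 stretch is the part upstream of the GENCODE start, at chrX:150547167-150547374 on the plus strand, and its GATA match lies 44 bases before that start.

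Alas2: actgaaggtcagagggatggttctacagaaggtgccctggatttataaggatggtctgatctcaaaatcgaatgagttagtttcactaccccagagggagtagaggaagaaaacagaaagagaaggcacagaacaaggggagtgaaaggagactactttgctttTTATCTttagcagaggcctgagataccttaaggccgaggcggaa
Cpox: aaagcgcctatcTTATCAgtccaagcacct
Uros, internal start: tctccctcagccTTATCAgtgacagagggc
Alad, start nearer the gene body: ccgccccgccccCACGTGggcttgcgcttt
Alad, upstream start: gctccgaatgccCACGTGgaccccctcggg
Urod: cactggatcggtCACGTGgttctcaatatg
Alas1: cgcacccaagGCGCATGCGCggcggtcact

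The Cpox stretch is chr16:58670110-58670139 (plus strand) and the Uros stretch chr7:133702551-133702580 (minus strand). The Alad stretches are chr4:62519920-62519949 and chr4:62520151-62520180, the Urod stretch is chr4:116994445-116994474 and the Alas1 stretch is chr9:106247906-106247935, all on the minus strand. The capitals of Alas1 hold the NRF1 core on each strand, in overlap. Alas1 had 2 windows, and this stretch belongs to the start at chr9:106247730, downstream of the other start at chr9:106247954. The window of that other start held none of the 3 motifs, and both starts lie inside the GENCODE gene. The upstream Uros window held CACGTG at its far edge, 250 bases before the start, and the windows of Ppox and Slc25a38 held none of the 3 motifs. A match describes letters in a window and is not a measured site. The GATA letters thus stood before Alas2, which was lower in KD_MV, before the internal start of Uros, which was higher, and before Cpox, which did not pass the test.

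**Figure D1:**
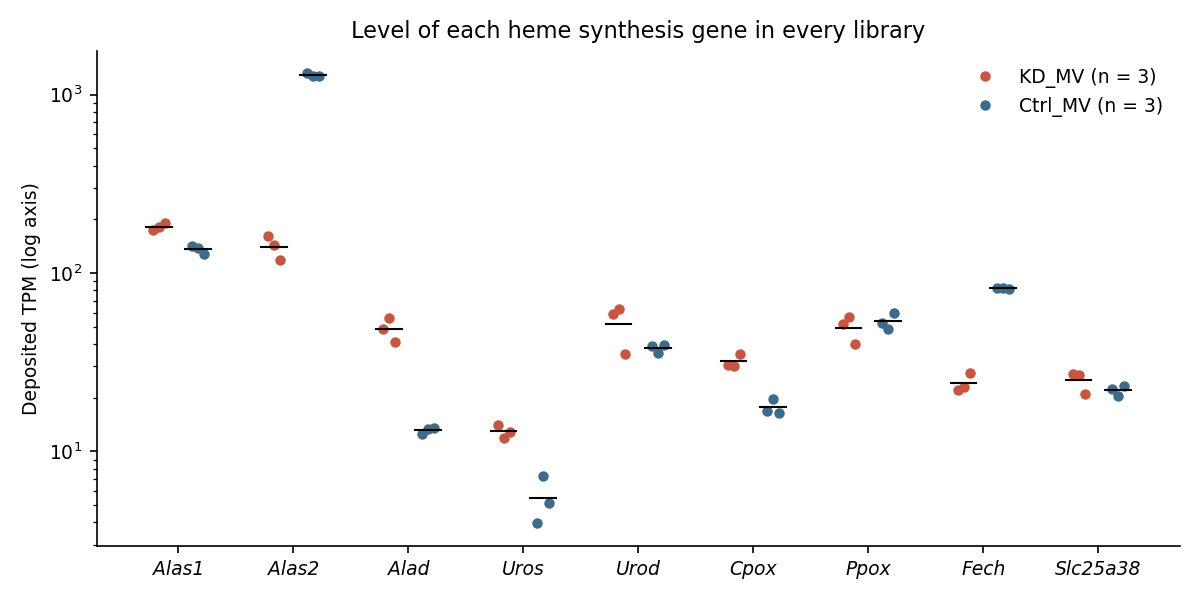
Deposited TPM (log axis) of each heme synthesis gene in pathway groups along the horizontal axis, with 1 point per library and a black line at the mean, KD_MV in red and Ctrl_MV in blue (n = 3 each). Alas2 and Fech sit lower in KD_MV, at means of 141 and 24.1 TPM against 1286 and 82.1 TPM in Ctrl_MV. Alad, Uros, Cpox and Alas1 sit higher in KD_MV on this scale, of which Cpox and Alas1 did not pass the test with TMM factors.

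The pathway did not move as a block. Alad, the second enzyme, and Uros, which closes the ring, were higher in KD_MV. Alas2, Ppox, the next to last enzyme, and Fech, which inserts iron, were lower. The 4 genes Alas1, Urod, Cpox and Slc25a38 did not pass the test. By edgeR's quasi-likelihood test with Benjamini-Hochberg adjustment over all tested genes at 0.05, 5 of 9 members passed, where 52.6% of all tested genes did. At that share the assumption of TMM factors, that most genes do not differ, may not hold. Calls on small differences depend on it. The 2 members that rose stand beside 27.8% of all tested genes higher in KD_MV, and the 3 that fell beside 24.9% lower, so neither share of the 9 sets them apart. In CPM the groups did not overlap for 7 of 9 members, against 61.3% of all tested genes. The median log2 fold change of the 9 was -0.12, beside 0.03 for all tested genes.

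Alas2 (chrX:150547375-150570638, plus strand) showed the greatest difference of the 9. Its level was 160.4, 144 and 118 TPM in KD_MV replicates 1, 2 and 3, against 1316, 1277 and 1264 TPM in Ctrl_MV replicates 1, 2 and 3. Every KD_MV library lay far below every Ctrl_MV library. In counts Alas2 averaged 139 ± 23.3 CPM in KD_MV and 1896 ± 10.9 CPM in Ctrl_MV, a 13.6-fold lower level (log2 fold change -3.76 ± 0.15 (SE), edgeR adjusted p = 9.44e-07). The Alas2 locus overlaps Apex2 on the opposite strand, which was higher in KD_MV, at 7.59 ± 2.44 CPM against 4.42 ± 1.01 CPM in Ctrl_MV (log2 fold change 0.78, adjusted p = 0.0309).

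Alas1 (chr9:106233455-106248654, minus strand), the housekeeping isozyme, had 174, 180.2 and 191 TPM in KD_MV, against 142, 138 and 127 TPM in Ctrl_MV. Scaled with TMM factors, the same gene had 196, 199 and 204 CPM in KD_MV, against 231, 210.5 and 209 CPM in Ctrl_MV. The groups did not overlap on either scale, but they lay in opposite order. The log2 fold change of Alas1 was -0.12 ± 0.09 (SE) and did not pass the test (edgeR adjusted p = 0.303), whereas it was 0.29 with library size alone (adjusted p = 0.0222) and 0.42 with limma on log2(TPM + 1) (adjusted p = 0.00487). The direction of Alas1 therefore rests on the scaling, and in all of these settings it differed far less than Alas2.

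The isozymes were set against each other within each library, where no scaling between libraries enters. Alas2 TPM over Alas1 TPM was 0.921, 0.799 and 0.615 in KD_MV, against 9.24, 9.28 and 9.95 in Ctrl_MV. Alas1 was thus the more abundant isozyme in each KD_MV library and Alas2 in each Ctrl_MV library. The log2 ratio averaged -0.38 ± 0.30 in KD_MV and 3.25 ± 0.06 in Ctrl_MV (SD, n = 3 per group), a difference of -3.63 (two-sided exact permutation test, p = 0.1, which is the lowest value reachable with 3 libraries a group). As a share of the summed TPM of both isozymes, Alas2 made up 43.5 ± 4.99% in KD_MV and 90.5 ± 0.358% in Ctrl_MV. No stretch of 30 bases was shared between the transcripts of Alas1 and Alas2, or between any other pair of members.

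Slc25a38 (chr9:120110374-120124504, plus strand) brings glycine to aminolevulinate synthase, and its loss causes sideroblastic anemia in humans. It had 27.1, 26.9 and 21.1 TPM in KD_MV, against 22.3, 20.4 and 23.2 TPM in Ctrl_MV. The groups overlapped on this scale and in CPM, where Slc25a38 averaged 17.5 ± 3.93 in KD_MV and 22.5 ± 1.65 in Ctrl_MV. Its log2 fold change was -0.36 ± 0.17 (SE) and did not pass the test (edgeR adjusted p = 0.106), and it was 0.05 with library size alone and 0.17 with limma on log2(TPM + 1), where it did not pass either. Without KD_MV replicate 1 Slc25a38 passed as lower, at -0.51 (adjusted p = 0.0363).

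Alad (chr4:62509169-62519918, minus strand), which joins aminolevulinate molecules into the pyrrole unit of the ring, had 48.6, 55.6 and 41.1 TPM in KD_MV, against 12.4, 13.4 and 13.5 TPM in Ctrl_MV. The lowest KD_MV library lay well above the highest Ctrl_MV library. Alad averaged 32.6 ± 3.97 CPM in KD_MV and 12.9 ± 1.31 CPM in Ctrl_MV, a 2.52-fold higher level (log2 fold change 1.34 ± 0.14 (SE), edgeR adjusted p = 7.38e-05). It was the member with the greatest rise, and it kept its call in every setting run.

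Uros (chr7:133686243-133710072, minus strand), uroporphyrinogen III synthase, was the least abundant member per length in both groups. It had 14.1, 11.96 and 12.9 TPM in KD_MV, against 3.96, 7.26 and 5.14 TPM in Ctrl_MV. The groups did not overlap, and Ctrl_MV replicate 2 was the Ctrl_MV library nearest to KD_MV. Uros averaged 11.1 ± 0.851 CPM in KD_MV and 7.12 ± 2.49 CPM in Ctrl_MV, with a log2 fold change of 0.65 ± 0.23 (SE) that passed narrowly (edgeR adjusted p = 0.0430). Uros no longer passed with RLE scaling (0.62, adjusted p = 0.0510), with no filter on low counts (0.70, adjusted p = 0.0789) and without any single library other than Ctrl_MV replicate 2 (0.43 to 0.68, adjusted p = 0.0680 to 0.111). Bccip, which overlaps Uros on the opposite strand at 66.3 ± 11.5 CPM in KD_MV and 60.4 ± 2.43 CPM in Ctrl_MV, did not pass the test. Whether featureCounts was run by strand is not known from these sources, so reads where the genes overlap cannot be told apart.

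Urod (chr4:116989965-116994413, minus strand), which removes carboxyl groups from the ring, had 58.7, 62.6 and 35.0 TPM in KD_MV, against 39.0, 35.6 and 39.7 TPM in Ctrl_MV. KD_MV replicate 3 lay below all Ctrl_MV libraries and the other KD_MV libraries above them. Urod averaged 30.4 ± 7.63 CPM in KD_MV and 30.6 ± 2.52 CPM in Ctrl_MV, and its log2 fold change of -0.01 ± 0.18 (SE) did not pass the test (edgeR adjusted p = 0.971), nor did the 0.40 that library size alone and limma on log2(TPM + 1) each gave. The count behind 1 TPM of Urod varied 1.25-fold across the 6 libraries, against 1.06-fold for the median gene, so its TPM and CPM are less interchangeable than those of other members.

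Cpox (chr16:58670208-58680391, plus strand), coproporphyrinogen oxidase of the space between the mitochondrial membranes, had 30.7, 30.1 and 35.1 TPM in KD_MV, against 16.9, 19.8 and 16.4 TPM in Ctrl_MV. The groups were well separated in TPM, while in CPM they were nearly touching, at 48.5 in the lowest KD_MV library and 48.3 in the highest Ctrl_MV library. The log2 fold change of Cpox was 0.28 ± 0.12 (SE) and did not pass the test (edgeR adjusted p = 0.0674). It passed with library size alone (0.68, adjusted p = 0.000947), with limma on log2(TPM + 1) (0.82, adjusted p = 0.000451) and without Ctrl_MV replicate 2 (0.37, adjusted p = 0.0469).

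Ppox (chr1:171275990-171281186, minus strand), protoporphyrinogen oxidase, had 51.6, 57.0 and 39.8 TPM in KD_MV, against 52.6, 48.7 and 59.6 TPM in Ctrl_MV. These levels overlapped, but in CPM the groups did not, at 52.8, 60.4 and 40.5 in KD_MV, against 73.5, 72.8 and 86.2 in Ctrl_MV. Ppox fell by 0.60 ± 0.15 (SE) on the log2 scale (edgeR adjusted p = 0.01002), and this call was lost with library size alone (-0.19, adjusted p = 0.325) and with limma on log2(TPM + 1) (-0.13, adjusted p = 0.481). B4galt3 overlaps Ppox on the opposite strand and did not pass the test, at 41.4 ± 6.48 CPM in KD_MV and 35.7 ± 2.44 CPM in Ctrl_MV.

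Fech (chr18:64456550-64489066, minus strand), ferrochelatase, inserts iron into protoporphyrin and holds an iron-sulfur cluster. It had 22.2, 22.8 and 27.4 TPM in KD_MV, against 82.4, 82.4 and 81.4 TPM in Ctrl_MV. The Ctrl_MV libraries were almost alike, and all lay far above the highest KD_MV library. Fech averaged 36.0 ± 4.02 CPM in KD_MV and 182 ± 3.51 CPM in Ctrl_MV, a 5.05-fold lower level (log2 fold change -2.34 ± 0.11 (SE), edgeR adjusted p = 1.51e-06). Fech and Alas2, the last and the first enzyme of the erythroid pathway, were the members whose fall kept its call in every setting run.

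**Figure D2:**
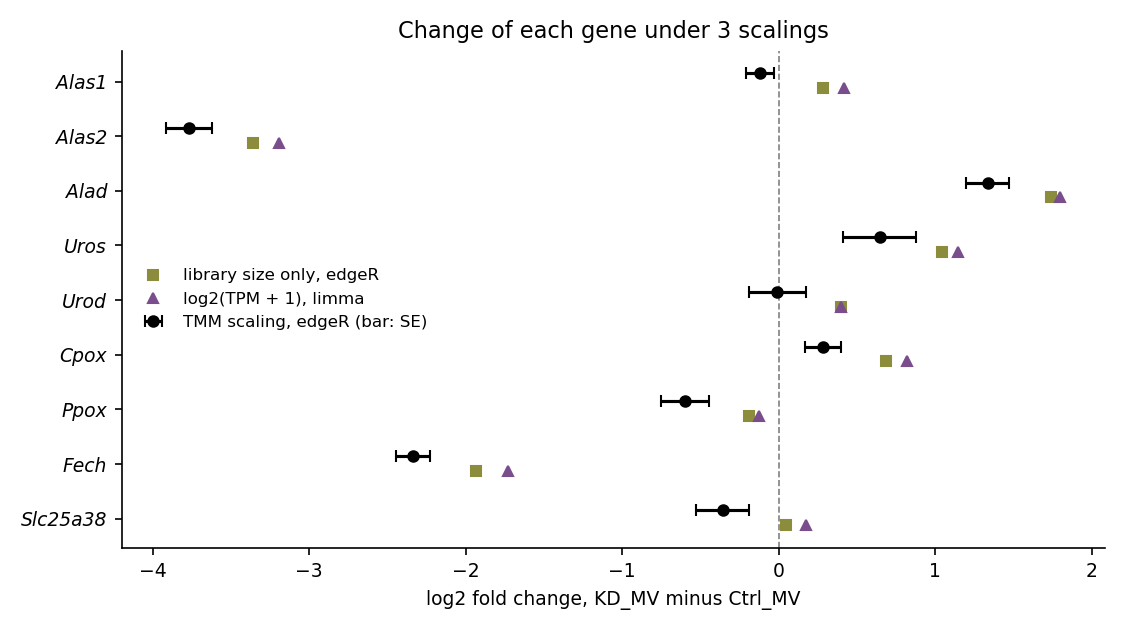
Log2 fold change (KD_MV minus Ctrl_MV) of each member, from top to bottom in pathway groups. Black circles with SE bars are edgeR with TMM factors, squares are edgeR with library size alone and triangles are limma on log2(TPM + 1); Alas2, Fech and Alad stay on the same side of 0 in all 3, while Alas1 lies at -0.12 with TMM factors, 0.29 with library size alone and 0.42 with limma, and Urod and Slc25a38 also change side without passing the test.

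The order of the members by TPM differed between the groups. In KD_MV it ran Alas1, Alas2, Urod, Ppox, Alad, Cpox, Slc25a38, Fech and Uros. Urod, Ppox and Alad overlapped with their neighbours in that order, as did Slc25a38 and Fech. In Ctrl_MV it ran Alas2, Alas1, Fech, Ppox, Urod, Slc25a38, Cpox, Alad and Uros, and no neighbours overlapped. The summed TPM of the 9 genes was 566 ± 39.5 in KD_MV and 1654 ± 30.8 in Ctrl_MV, of which Alas2 made up 24.7 ± 2.39% in KD_MV and 77.8 ± 0.210% in Ctrl_MV. Without Alas2 the other 8 summed to 426 ± 21.9 TPM in KD_MV and 368 ± 3.73 TPM in Ctrl_MV. The drop in the sum was thus carried by the erythroid isozyme, and the share of Fech in the sum was near its Ctrl_MV value, at 4.30 ± 0.834% in KD_MV and 4.96 ± 0.0729% in Ctrl_MV.

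Over the 6 libraries, likeness between genes was measured as the Euclidean distance between their log2(CPM + 0.5) values, each centred on the mean of its gene. The nearest genes were sought among 9509 genes with a mean of at least 5 CPM. Genes with Gm, Rik or clone-like symbols and immunoglobulin and T cell receptor segments were left out of these. Nearest to Alas2 were Hbb-bt (distance 0.21), Hbb-bs (0.38), Igfbp6 (0.45), Cth (0.46) and Hba-a1 (0.48), of which 3 are globin genes. Nearest to Alas1 were Arel1 (0.05), Tnfrsf1a (0.06), Zadh2 (0.07), Xab2 (0.08) and Kpna1 (0.08). Among the members, Alas2 lay nearest to Fech, at a distance of 1.85, and Ppox and Slc25a38 were the closest pair, at 0.41. With 3 libraries a group, such distances are mostly set by the difference between the groups.

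Alas2 was next compared with the globins, since heme made in erythroid cells goes to hemoglobin. Globin copies are nearly identical, so Hba-a1, Hba-a2, Hbb-bs and Hbb-bt were summed, to 27386 to 30846 TPM in KD_MV and 219826 to 250083 TPM in Ctrl_MV. Alas2 TPM per 1000 globin TPM was 5.20, 5.26 and 3.99 in KD_MV, against 5.99, 5.11 and 5.23 in Ctrl_MV. These values overlapped: the log2 ratio differed by -0.18 (exact two-sided permutation p = 0.5), over settings between -0.25 and -0.05. Alas2 and globin transcripts thus fell by similar factors, although with 3 libraries a group a small difference between them could not be detected.

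Fech did not keep to the globins in the same way. Fech TPM per 1000 globin TPM was 0.718, 0.833 and 0.931 in KD_MV, against 0.375, 0.329 and 0.337 in Ctrl_MV. Every KD_MV library was higher, with a log2 difference of 1.25 (exact two-sided permutation p = 0.1, the smallest possible). Relative to Alas2, Fech stood at 0.138, 0.158 and 0.233 in KD_MV, against 0.0626, 0.0645 and 0.0644 in Ctrl_MV, again without overlap. The other 7 members also stood higher relative to the globins in KD_MV, each with the smallest p the design allows. Their log2 differences ran from 2.89 for Ppox to 4.89 for Alad. The fall of the globins (log2 fold changes -3.54 to -3.65 with TMM factors) enters each of these ratios. The median tested gene was at 0.03, so a gene that did not change would rise in this ratio too.

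**Figure D3:**
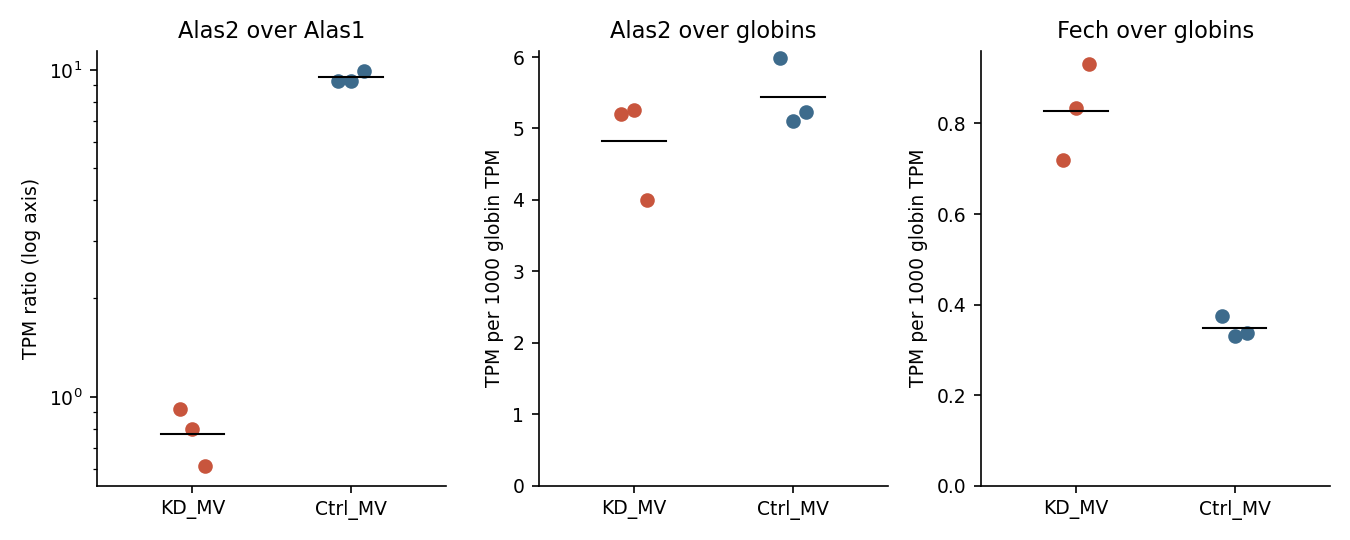
TPM ratios within each library, with 1 point per library (KD_MV red, Ctrl_MV blue, n = 3 each); the line is the geometric mean in the left panel, which has a log axis, and the arithmetic mean in the other panels. Alas2 over Alas1 lies below 1 in all KD_MV libraries and above 9 in all Ctrl_MV libraries, Alas2 per 1000 globin TPM overlaps between groups, and Fech per 1000 globin TPM is higher in all KD_MV libraries.

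Many but not all genes of red cell membrane and maturation were lower in KD_MV, as Alas2 and Fech were. Of 32 erythroid markers tested, 22 were lower and 0 higher, with a median log2 fold change of -1.32. Over all tested genes 24.9% were lower. None of the 32 was at 0 in all libraries. The membrane genes Sptb (-0.44), Ank1 (-0.66), Rhag (-0.27), Rhd (0.10) and Add2 (-0.22) did not pass the test. The summed level of the 32 was 937 to 1016 TPM in KD_MV and 2118 to 2170 TPM in Ctrl_MV. The genes that weighed most in this sum were Ube2l6 (137 TPM in KD_MV and 244 TPM in Ctrl_MV), Isg20 (128 and 234 TPM) and Mkrn1 (110 and 234 TPM). Which cells the RNA of the listed genes came from was not measured. Neither the sum nor the count of lower genes is thus a measure of red cell RNA alone. Bpgm, the enzyme that makes the regulator of hemoglobin's oxygen affinity, fell by 3.30 ± 0.10 (SE) on the log2 scale (edgeR adjusted p = 2.69e-07), and Slc4a1, the anion exchanger band 3, by 2.05 ± 0.10 (adjusted p = 1.77e-06). The erythroid transcription factor Gata1 did not pass the test, with 8.29 ± 0.513 CPM in KD_MV and 6.55 ± 0.817 CPM in Ctrl_MV (log2 fold change 0.34, edgeR adjusted p = 0.0808), but it passed as higher with library size alone (0.74, adjusted p = 0.00249) and with limma on log2(TPM + 1) (0.74, adjusted p = 0.0014). Klf1 did not pass the test (-0.41, edgeR adjusted p = 0.105). Of 14 genes of late red cell maturation 12 were lower and 0 higher, against 9 lower and 1 higher with library size alone, and the list shares members with the erythroid one. With library size as the only scaling, 2 erythroid markers were higher and 19 lower. The part of erythroid RNA content in the differences of Alas2 and Fech was not tested.

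**Figure D4:**
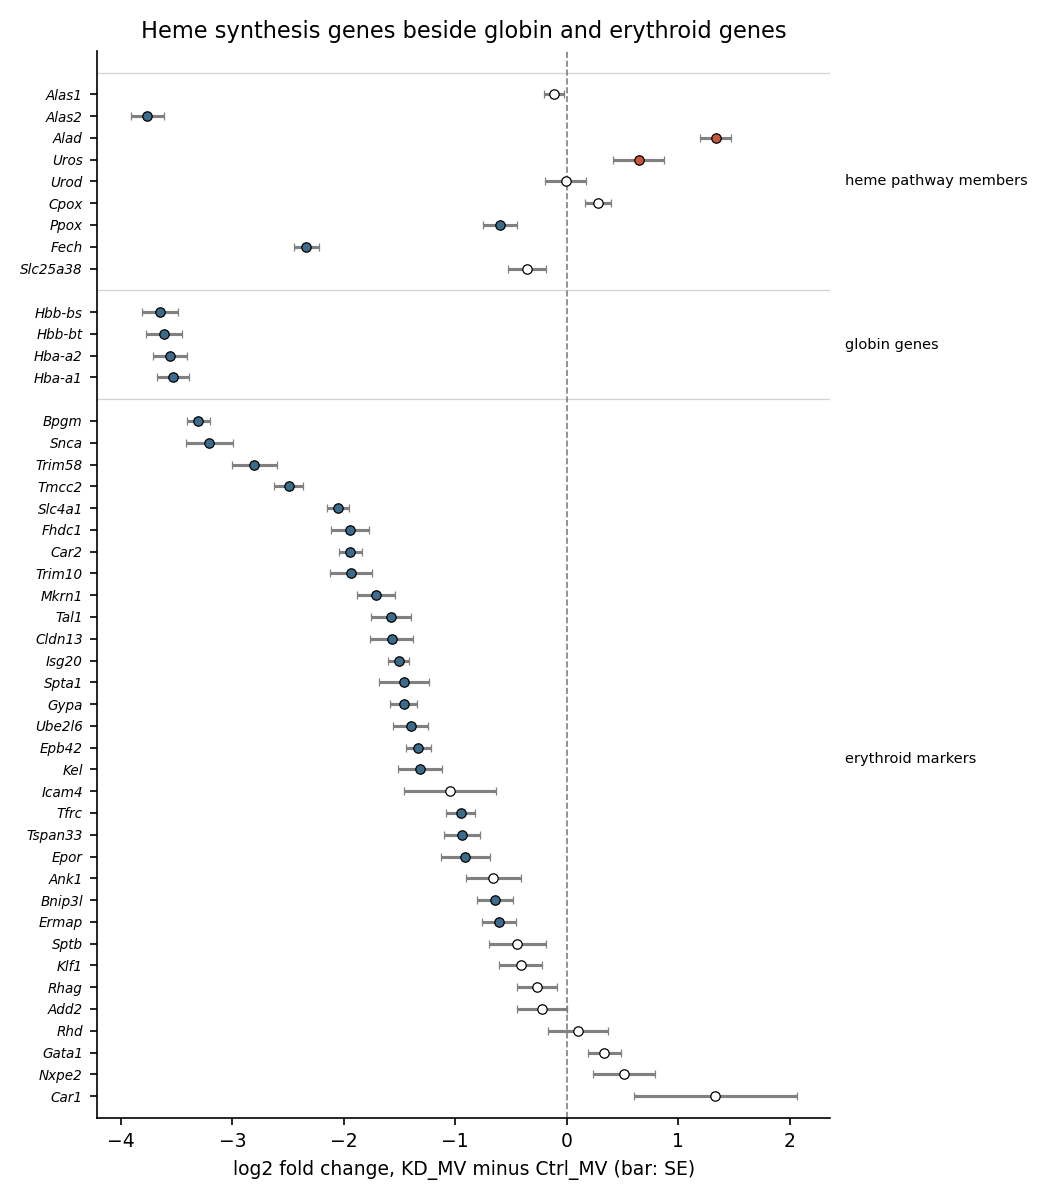
Log2 fold change (KD_MV minus Ctrl_MV, edgeR with TMM factors, bars SE) of the 9 members, the 4 tested globin genes and 32 erythroid markers, ordered by value within each list other than the members. Red points passed the test as higher, blue points as lower and white points did not pass; 22 of 32 erythroid markers are blue and none is red (2 were higher with library size alone).

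Markers of other bone marrow cells moved too. Beside the list counts here and below, 27.8% of all tested genes were higher and 24.9% lower with TMM factors. With library size alone 7455 of 16071 genes were higher and 2010 lower, so counts over all genes also shifted with the scaling. Of 9 eosinophil markers 6 were higher and 0 lower in KD_MV, with a summed level of 1032 to 1489 TPM in KD_MV and 33.3 to 41.2 TPM in Ctrl_MV. The surface receptor genes Ccr3 (log2 fold change 0.03), Il5ra (-0.24) and Siglecf (0.60) did not pass the test. Siglecf passed as higher with library size alone (1.01, edgeR adjusted p = 0.00723). B cell markers were higher in 5 of 8 cases (1559 to 1615 TPM in KD_MV and 539 to 662 TPM in Ctrl_MV) and those of megakaryocytes and platelets in 8 of 9 (209 to 250.3 TPM in KD_MV and 53.9 to 68.1 TPM in Ctrl_MV), with 0 lower in either list. Of 15 proliferation genes 13 were higher and 0 lower, summing to 1498 to 1538 TPM in KD_MV and 256 to 275 TPM in Ctrl_MV. Of 16 neutrophil markers 4 were higher and 7 lower, against 6 higher and 5 lower with library size alone. The higher ones were Prtn3 (4.29), Mpo (4.15), Elane (4.01) and Ngp (1.04). The lower ones were Retnlg (-2.34), Camp (-1.91), Fpr1 (-1.74), Mmp9 (-1.46), Csf3r (-0.84), Cxcr2 (-0.82) and Itgam (-0.80). Cxcr2 and Itgam lost their calls with library size alone. Of 11 monocyte and macrophage markers 5 were higher and 3 lower, against 5 higher and 2 lower with library size alone. Of 9 T and NK cell markers 1 was higher and 1 lower, against 4 higher and 0 lower with library size alone, and of 8 mast cell and basophil markers 2 were higher and 3 lower, against 3 higher and 1 lower. Of 15 hepatocyte and hepatoma genes, 9 were at 0 in all libraries and 3 could be tested, of which 2 were lower. No gene of the blood cell lists was at 0 in all libraries. Many but not all genes of the eosinophil, B cell, megakaryocyte and proliferation lists were thus higher in the libraries in which Alad and Uros were higher. The part of these lists in the difference of Alad and Uros was not tested.

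Supply of the substrates of aminolevulinate synthase was mixed. Of 11 tested genes of glycine and succinyl-CoA supply, 4 were higher and 3 lower, with a median log2 fold change of 0.31, against 6 higher and 2 lower with library size alone (median 0.72). Slc6a9, the glycine transporter of the plasma membrane, had 6.57 ± 0.823 CPM in KD_MV and 62.1 ± 4.58 CPM in Ctrl_MV, and fell by 3.24 ± 0.14 (SE) on the log2 scale (edgeR adjusted p = 1.03e-06). The serine hydroxymethyltransferases, which make glycine, parted: cytosolic Shmt1 rose by 1.54 ± 0.11 (adjusted p = 1.16e-05), and mitochondrial Shmt2 fell by 1.34 ± 0.11 (adjusted p = 2.96e-05). Gcsh, a subunit of the glycine cleavage system (log2 fold change 2.36 ± 0.15, adjusted p = 6.03e-06), and Suclg1, a subunit of succinyl-CoA ligase (1.53 ± 0.12, adjusted p = 1.67e-05), were higher.

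Of 18 genes of mitochondrial transport and cofactors, 8 were higher and 5 lower (median 0.27), against 11 higher and 2 lower with library size alone (median 0.67). The mitochondrial iron importers moved in opposite directions. Slc25a37 (mitoferrin-1), which serves erythroid cells, had 247 ± 24.3 CPM in KD_MV and 402 ± 24.3 CPM in Ctrl_MV (log2 fold change -0.70 ± 0.11 (SE), edgeR adjusted p = 0.000668), a call lost with limma on log2(TPM + 1). Its widely expressed paralog Slc25a28 (mitoferrin-2) had 48.9 ± 1.48 CPM in KD_MV and 30.7 ± 1.20 CPM in Ctrl_MV (0.67 ± 0.10, adjusted p = 0.000440). Hspa9, the mitochondrial chaperone that acts in iron-sulfur cluster assembly, fell by 1.63 ± 0.10 (adjusted p = 6.03e-06), and Fdxr, ferredoxin reductase, rose by 1.13 ± 0.16 (adjusted p = 0.000446).

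All 4 tested genes of heme breakdown were lower with TMM factors, with a median log2 fold change of -0.52, but with library size alone 1 of 4 was lower. Hmox1, the inducible heme oxygenase, had 820.4 ± 63.6 CPM in KD_MV and 1741 ± 156 CPM in Ctrl_MV, and fell by 1.09 ± 0.12 (SE) on the log2 scale (edgeR adjusted p = 9.32e-05). The constitutive form Hmox2 was at -0.27 ± 0.09 (adjusted p = 0.0342), and its sign turned with library size alone and with limma on log2(TPM + 1). The biliverdin reductases Blvra (-0.40, adjusted p = 0.0202) and Blvrb (-0.64, adjusted p = 0.00171) were lower, calls that both genes lost with library size alone and with limma on log2(TPM + 1). Among 4 tested genes of heme export and import, Abcg2, which exports porphyrins and heme, was higher (6.95 ± 1.53 CPM in KD_MV and 3.45 ± 0.680 CPM in Ctrl_MV, adjusted p = 0.00481) and Slc48a1, which brings heme out of the lysosome, was lower (-0.53, adjusted p = 0.00102). The call of Slc48a1 was lost with library size alone (-0.13, adjusted p = 0.232), and its sign turned with limma on log2(TPM + 1) (0.04, adjusted p = 0.713).

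Of 19 regulators of heme and iron genes, 4 were higher and 8 lower (median -0.22), against 8 higher and 5 lower with library size alone. Nfe2l2, the NRF2 factor that activates Hmox1, fell by 1.27 ± 0.12 (SE) on the log2 scale (edgeR adjusted p = 5.68e-05), and its relative Nfe2l1 by 1.90 ± 0.18 (adjusted p = 4.44e-05). Bach1, the heme-sensing repressor of Hmox1, was at -0.91 ± 0.14 (adjusted p = 0.000741), a call lost with limma on log2(TPM + 1). Its relative Bach2 had 123 ± 72.4 CPM in KD_MV and 63.4 ± 6.44 CPM in Ctrl_MV and did not pass the test (adjusted p = 0.0899), although it passed as higher with library size alone (1.37, adjusted p = 0.0246) and with limma on log2(TPM + 1) (1.27, adjusted p = 0.0185). The blood cell factor Tal1 fell by 1.58 ± 0.18 (adjusted p = 0.000125), and Zfpm1, the GATA1 partner FOG1, rose by 1.37 ± 0.23 (adjusted p = 0.00115). Nfe2 was lower (-1.08 ± 0.34, adjusted p = 0.0264), a call lost with library size alone and with limma on log2(TPM + 1), and Nr1d2, a heme-binding nuclear receptor, was lower (-1.21 ± 0.15, adjusted p = 0.000202).

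**Figure D5:**
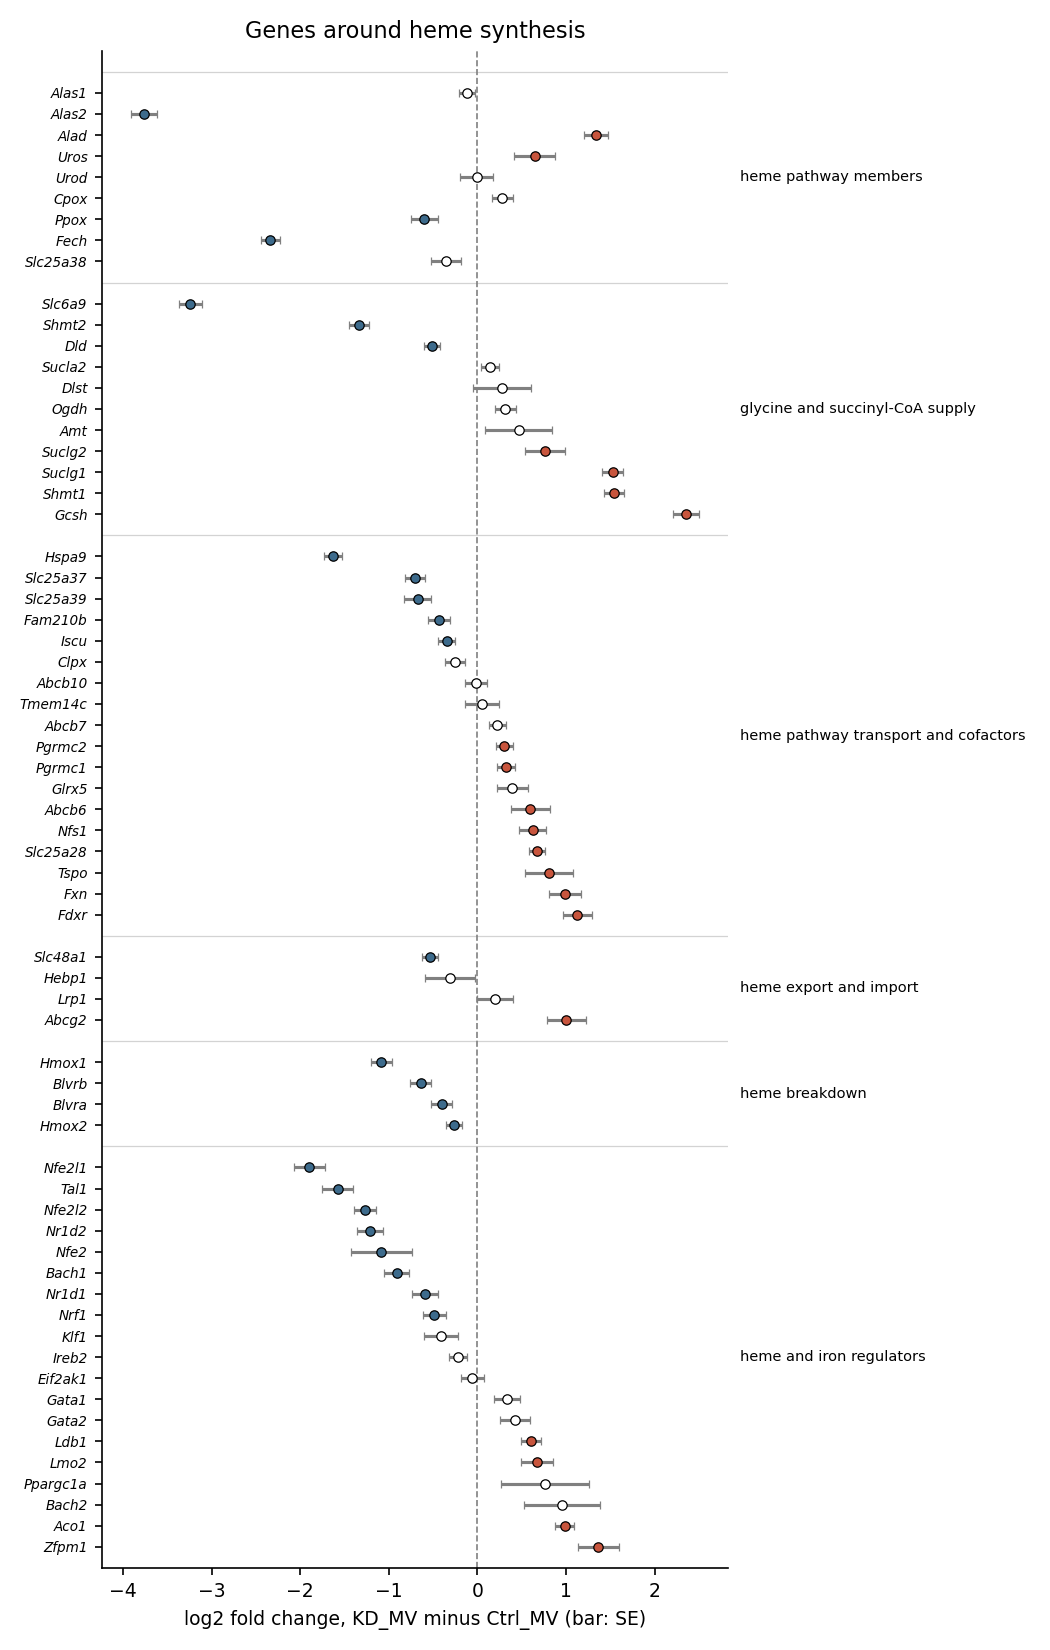
Log2 fold change (KD_MV minus Ctrl_MV, edgeR with TMM factors, bars SE) of the 9 members and of the tested genes of substrate supply, transport and cofactors, export and import, breakdown and regulation. Red points passed the test as higher, blue points as lower and white points did not pass; all 4 breakdown genes are blue (1 of 4 was lower with library size alone), and Slc6a9 lies farthest to the left after Alas2.

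Among proteins outside the red cell that hold, receive electrons from or process heme, 10 of 24 were higher and 7 lower (median 0.23), against 16 higher and 6 lower with library size alone (median 0.64). Epx, eosinophil peroxidase, had 75.7 ± 8.06 CPM in KD_MV and 3.10 ± 0.245 CPM in Ctrl_MV (log2 fold change 4.61 ± 0.14 (SE), edgeR adjusted p = 2.47e-07). Mpo, myeloperoxidase of neutrophil precursors, had 9.95 ± 0.800 CPM in KD_MV and 0.557 ± 0.115 CPM in Ctrl_MV (4.15 ± 0.20, adjusted p = 1.79e-06). The subunits of the NADPH oxidase cytochrome differed: Cyba fell by 1.25 ± 0.15 (adjusted p = 0.000198) and Cybb did not pass the test (0.10, adjusted p = 0.515), although it passed as higher with library size alone (0.50, adjusted p = 0.00464) and with limma on log2(TPM + 1) (0.67, adjusted p = 0.00176). Ptgs2, the inducible prostaglandin synthase, fell by 1.96 ± 0.14 (adjusted p = 1.11e-05), and Cyp1a1, a cytochrome P450 induced through the aryl hydrocarbon receptor, was at 0.242 ± 0.0625 CPM in KD_MV and 10.9 ± 2.19 CPM in Ctrl_MV (-5.47 ± 0.26, adjusted p = 1.79e-06). Cyp51, the P450 of sterol synthesis, rose by 1.73 ± 0.13 (adjusted p = 1.52e-05), while Por, which feeds electrons to P450s, fell by 1.02 ± 0.11 (adjusted p = 8.52e-05). Cyb5a, cytochrome b5, had 26.9 ± 1.34 CPM in KD_MV and 53.9 ± 4.64 CPM in Ctrl_MV (adjusted p = 9.35e-05).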

How the data were processed

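Libraries were prepared from total RNA with a stranded mRNA kit, per the labels' protocols. Trim Galore, Subread, featureCounts and the mm10 build are named in the submitters' processing notes, while their versions and settings are not given in the sources used here. Per the file headers, the deposited table held raw counts, TPM and FPKM for each gene in each library. The deposited counts were not normalized, the deposited TPM summed to between 999842 and 999905 per library, and the deposited FPKM values were not used. Even numbers made up 55.5 to 57.9% of counts from 1 to 20.

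The test was the two-sided quasi-likelihood F test of edgeR 4.0.16 (R 4.3.3) on group alone, after TMM scaling and filterByExpr (min.count 10, min.total.count 15), with Benjamini-Hochberg adjustment over all tested genes and a threshold of 0.05. A standard error is |log2 fold change| divided by the root of F. Ratios within libraries used deposited TPM with no pseudocount, and limma 3.58.1 used log2(TPM + 1) of genes with a mean TPM of at least 1. DESeq2 1.42.0, limma-voom, other scalings and filters, a replicate block and leaving out each library were alternatives, and halved counts were added after seeing the data. The scripts were tested on simulated counts. The exact permutation test cannot go below 0.1 with 3 libraries against 3. Libraries of a group differed by 20.3 to 97.8 in chi-square per degree of freedom, far beyond sampling noise, so all were counted as separate libraries. This value cannot tell whether they stem from different mice or cultures.

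Apart from the members, genes of heme-related lists were named when they passed the test with a log2 fold change of at least 1 in size and a mean of at least 5 CPM, as were 4 pairs of paralogs, the 5 genes most like each Alas isozyme and the most abundant markers of each cell type, of which the text gives a part. Bpgm, Slc4a1, Gata1, Klf1, Blvra, Blvrb, Slc48a1, Cybb, Apex2, Bccip, B4galt3 and Ly6g were added after their values were seen. So were Ccr3, Il5ra, Siglecf, Elane, Prtn3, Ngp, Mmp9, Camp, Csf3r, Cxcr2, Retnlg and Itgam. The members and lists were chosen with earlier results of these data known. Sequences came from RefSeq and GENCODE M21 for the same build, and the positions of 7 of 9 members equalled those of GENCODE M21, all but Cpox and Fech. All 9 members are protein-coding in it.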

Additional observations from a re-analysis of the deposited data

How the results depend on the processing

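Among the recomputed log2 fold changes of the members, 138 stayed on the same side of the threshold, 9 lost a call, 4 gained one and 2 passed with the opposite sign. Both of these were Alas1, at 0.29 with library size only and 0.42 with limma on log2(TPM + 1), against -0.12. The median over all genes tested was 0.43 and 0.51 in these settings, against 0.03 in the main test. Why the scalings differ was not tested. Urod and Slc25a38 also changed sign with library size only and limma on log2(TPM + 1), and passed in neither. The number of members higher in KD_MV was 2, and it was 4 with library size only and with limma on log2(TPM + 1), 1 with RLE scaling and with no filter, and 1 to 3 when a library was left out. The number of members lower was 3, and 2 to 4 over all alternatives. Over all genes, 4464 of 16071 were higher in the main test, 7455 of 16071 with library size only and 7719 of 13439 with limma on log2(TPM + 1). In the same settings 3995, 2010 and 1228 were lower, so the member counts shifted in the direction of those of all genes. Halved counts, chosen after seeing the data because even counts were in excess, gave 2 higher and 3 lower. Same-numbered libraries of the groups did not deviate together (correlations -0.01, -0.10 and -0.04). With 3 libraries a group these values cannot exclude a weak pairing, so whether the numbers pair libraries is not known. With a replicate block 2 members were higher and 3 lower. List counts were recomputed with library size only, and single genes of the lists also with the other scalings and limma on log2(TPM + 1). With 3 libraries a group, precision is limited for the lower members, such as Uros, and the TPM ratios cannot pass a threshold of 0.05.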
